A study of Mus musculus with 6 samples.

Results

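A set of 9 genes that mark monocytes and macrophages were followed in RNA-seq of cultured mouse T cells. The genes were Csf1r, Cd14, Lyz2, Fcgr1, Fcgr3, Adgre1, Mrc1, Cd68 and Spi1, taken from the table by gene name, and they made up 9 of the 54532 genes listed in the expression table, of which 33456 had at least 1 read in any library. T cells were isolated from the spleens of C57BL/6 mice aged 6 to 8 weeks with a pan T cell kit, grown with IL-2 and activated with anti-CD3/CD28 beads for 72 h, and every library shared this preparation. The T cells then shared a culture with ID8 cells (a line of mouse ovarian cancer) that had been treated beforehand with 40 µM cisplatin (the cisplatin group) or with PBS (the control group), and each group had 3 libraries. The study describes the libraries of a group as independent samples and biological replicates, but whether they came from separate mice or cultures, and how long the co-culture lasted, is not given in the sources used here. The p-values below therefore measure the spread between these libraries, part of which may be technical.

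Monocytes leave the bone marrow, circulate and become macrophages in tissues, where they engulf dying cells and bind antibody-coated particles. Spi1 encodes PU.1, the transcription factor that sets up the myeloid programme, and Csf1r encodes the receptor for the growth factors CSF1 and IL-34, on which most macrophages depend for survival. The remaining genes encode receptors and lysosomal proteins of the mature cell. Several are also used elsewhere, since B cells use Spi1, NK cells and neutrophils use Fcgr3, and Cd68 is found at lower levels in many cell types.

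The promoter sequences are shown because PU.1, itself 1 of the 9 genes, binds a purine-rich box in many myeloid promoters. RefSeq promoter windows on GRCm38.p6 matched 5 of the 9 genes, and Csf1r, Cd14, Adgre1 and Spi1 had no entry. In the 250 bases before each start, the letters GAGGAA, or TTCCTC for the other strand, were found for 4 of the 5 genes. Counted by window, they stood in 5 of the 6 windows of these genes and in 7639 of 32851 windows overall (23.3%). The Fcgr3 windows overlapped each other. Pieces of 66 bases are given 5′ to 3′ on the strand of the gene, with the matching letters in capitals.
Fcgr1: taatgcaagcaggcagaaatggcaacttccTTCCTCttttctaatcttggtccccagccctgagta
Fcgr3: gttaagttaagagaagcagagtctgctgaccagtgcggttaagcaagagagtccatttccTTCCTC
Mrc1: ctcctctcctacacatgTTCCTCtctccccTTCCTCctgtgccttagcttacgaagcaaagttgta
Cd68: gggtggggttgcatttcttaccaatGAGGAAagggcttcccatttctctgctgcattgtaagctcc
The Fcgr1 piece lies at chr3:96293989-96294054 on the minus strand, with its match 55 bases before the start, and the Fcgr3 piece lies at chr1:171059404-171059469 on the minus strand, with its match 6 bases before the RefSeq start used, which is inside the span of the gene in the expression table. The Mrc1 piece lies at chr2:14229217-14229282 on the plus strand, with the second of its matches 167 bases before the start, and the window held 3 matches in all, the nearest 35 bases before the start. The Cd68 piece lies at chr11:69666355-69666420 on the minus strand, with its match 225 bases before the start. A match of this kind is a description of the letters in the window and not of binding.

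No such match stood in the Lyz2 window, and Lyz2 is shown beside Lyz1 because the neighbouring lysozyme genes are near-copies whose levels were far apart in these libraries. Over the 60 bases from 120 to 61 before each start, 52 were identical, and the 8 that differ are in capitals. The Lyz2 stretch is chr10:117282333-117282392 and the Lyz1 stretch chr10:117292929-117292988, both on the minus strand.
Lyz2: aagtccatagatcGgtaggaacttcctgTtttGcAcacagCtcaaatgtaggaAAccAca
Lyz1: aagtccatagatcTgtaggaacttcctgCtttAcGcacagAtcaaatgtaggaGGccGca

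Between 30606569 and 32169496 reads lay on genes in each library, as rebuilt from the FPKM values. FPKM scales reads to gene length and library depth, so levels can be set side by side between genes. It does not correct for differences in composition between libraries, such as those in the marker levels that follow. T-cell markers were present in every library, and the 16 genes of that list summed to 1273 to 1313 FPKM in the cisplatin group and 872 to 890 FPKM in the control group. Markers of ID8 and ovarian surface epithelium (14 genes) summed to 219 to 225 FPKM against 1570 to 1655 FPKM, and B-cell markers (10 genes) to 407 to 432 FPKM against 261 to 278 FPKM. The markers of these cell types thus differed between the groups together with the macrophage genes. In such bulk samples fewer cells of a type and less RNA per cell cannot be told apart. For this reason, log2 fold changes relative to the mean of the T-cell markers, which were themselves 0.56 higher in log2 in the cisplatin group, are given beside those on the deposited scale. The median log2 fold change of all 15874 genes tested was 0.03 as deposited and -0.53 after this centring.

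Lyz2, Csf1r, Fcgr1 and Adgre1 were higher in the cisplatin group by at least 2-fold, Spi1 and Fcgr3 were higher by less, Cd68 was level and Cd14 was lower. All 3 cisplatin libraries stood above all 3 control libraries for 7 of the 9 genes, or 6 of the 8 tested, and below them for 1. Of all genes tested, 31.9% stood above in this way and 32.3% below. A gene was called when its Benjamini-Hochberg adjusted p from limma was under 0.05 and its fold change at least 2. Of the 8 members tested, 4 were called higher (4.11% of all genes tested) and 0 were called lower (12.8%), while 1 was lower at an unadjusted p under 0.05 and limma voom on the rebuilt reads likewise called 0 lower. On the adjusted p alone, 6 were higher (27.5% of all genes) and 1 was lower (29%). The ninth gene, Mrc1, had a mean below the 0.5 FPKM required for testing. Fcgr1 and Adgre1, which are among the 4 called higher, met that mean only through their cisplatin libraries, so the filter favoured high cisplatin values for them. With no filter on low values they were also called (limma adjusted p = 0.0022 and 0.044). With a mean of at least 5 FPKM required they were not tested. The tested members had a median log2 fold change of 1.03, and of 0.47 relative to the T-cell markers.

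**Figure D1:**
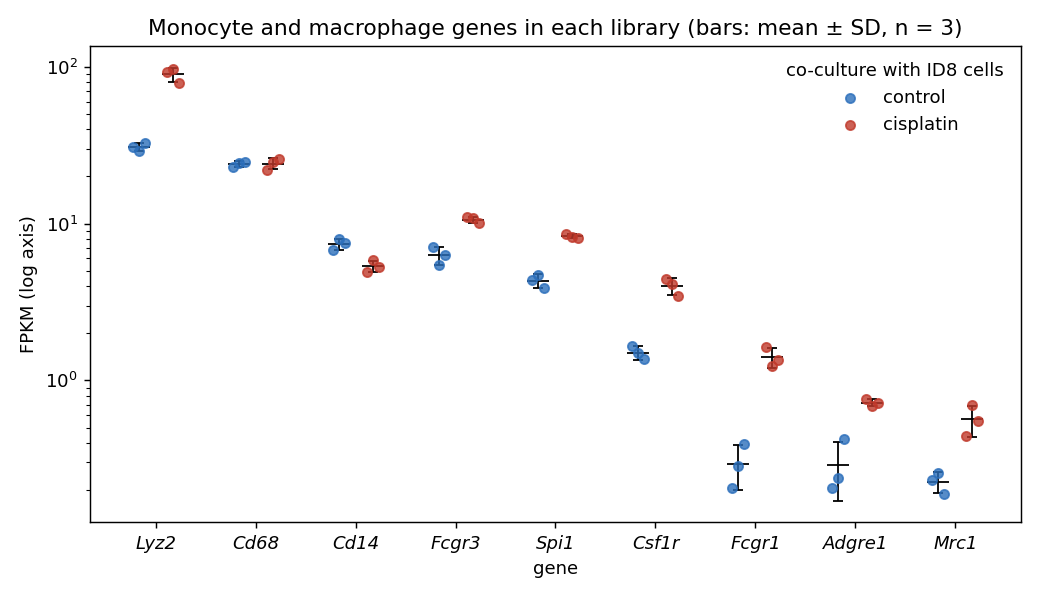
FPKM, on a log axis, of each of the 9 genes (x axis, in order of their control mean) in the 3 control libraries (blue) and the 3 cisplatin libraries (red), with a point for each library and black bars for the mean and SD of each group. The groups overlap for Cd68 alone, and Cd14 is the gene whose cisplatin libraries are all lower.

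Lyz2 (ENSMUSG00000069516; GRCm38 chr10:117277331-117282321, minus strand) encodes the lysozyme of macrophages, which breaks bacterial cell walls, and was the most abundant of the 9 genes. Its level was 92.5, 97.2 and 79.2 FPKM in the cisplatin libraries and 30.7, 29.0 and 32.6 FPKM in the control libraries. Every cisplatin library was far above every control library, on 3380 to 4239 against 1143 to 1316 reads. The means were 89.7 ± 9.31 and 30.8 ± 1.81 FPKM (SD, n = 3 each), or a change in log2 of 1.54 ± 0.08 (SE, limma adjusted p = 9.2e-06). Relative to the T-cell markers the log2 fold change was 0.98 (limma adjusted p = 4.8e-05). Lyz1, the neighbouring copy that Paneth cells express, had 0 to 4 reads in any library. Lyz2 shares 5.96% of its 75-base windows with Lyz1, so reads from the copy could alter little of its count.

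Csf1r (ENSMUSG00000024621; GRCm38 chr18:61105572-61132149, plus strand) lay at 4.43, 4.14 and 3.44 FPKM in the cisplatin libraries and at 1.66, 1.5 and 1.36 FPKM in the control libraries. The lowest cisplatin library still held more than double the level of any control library. The means were 4.0 ± 0.513 and 1.51 ± 0.148 FPKM (SD, n = 3 each), and the log2 fold change was 1.35 ± 0.13 (SE, limma adjusted p = 1.5e-04). It was 0.79 relative to the T-cell markers (limma adjusted p = 0.0018). The 3′ end of Csf1r overlaps Hmgxb3 on the other strand over 871 bases, and 15.9% of its 75-base windows are shared. Whether reads were counted by strand is not given in the sources used here, and Hmgxb3 lay at 9.23 and 8.14 FPKM in the cisplatin and control groups.

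Spi1 (ENSMUSG00000002111; GRCm38 chr2:91082390-91115756, plus strand) was read at 8.56, 8.26 and 8.09 FPKM in the cisplatin libraries and at 4.34, 4.73 and 3.86 FPKM in the control libraries. The groups were well apart and the cisplatin libraries lay close together. Its means of 8.31 ± 0.238 and 4.31 ± 0.436 FPKM (SD, n = 3 each) gave a log2 fold change of 0.94 ± 0.08 (SE, limma adjusted p = 9.7e-05), just short of the 2-fold limit. It was called after quantile normalization (1.10) and without control replicate 2 (1.0). Relative to the T-cell markers the log2 fold change was 0.38 (limma adjusted p = 0.0072).

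Both Fc-gamma receptors among the 9 genes rose, by unequal amounts. Fcgr1 (ENSMUSG00000015947; GRCm38 chr3:96282909-96293969, minus strand) encodes CD64, the high-affinity receptor for IgG, and stood at 1.64, 1.24 and 1.36 FPKM in the cisplatin libraries and 0.206, 0.283 and 0.390 FPKM in the control libraries. The control values rest on 16 to 31 reads, against 106 to 137 in the cisplatin group, and no library crossed over. The means were 1.41 ± 0.205 and 0.293 ± 0.0926 FPKM (SD, n = 3 each), with a log2 fold change of 1.96 ± 0.27 (SE, limma adjusted p = 9.6e-04) and 1.40 relative to the T-cell markers (limma adjusted p = 0.0032). This was the largest log2 fold change of the 8 members tested, on the log2(FPKM + 0.1) scale, which understates changes of low genes. Fcgr1 met the mean required for testing only through its cisplatin libraries, so this rank and adjusted p carry that selection.

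Fcgr3 (ENSMUSG00000059498; GRCm38 chr1:171051174-171064935, minus strand) encodes CD16, a low-affinity IgG receptor that signals through the Fc receptor gamma chain. It was measured at 11, 10.8 and 10.1 FPKM in the cisplatin libraries and at 7.10, 5.42 and 6.34 FPKM in the control libraries. The groups did not overlap, and the means were 10.6 ± 0.474 and 6.29 ± 0.842 FPKM (SD, n = 3 each). The log2 fold change of 0.75 ± 0.10 (SE, limma adjusted p = 7.4e-04) was below 2-fold, and relative to the T-cell markers it was 0.20 and did not pass the test (limma adjusted p = 0.14). The ratio of Fcgr1 to Fcgr3 was 0.133 ± 0.0175 in the cisplatin group and 0.0476 ± 0.0168 in the control group (SD, n = 3 each). A small part of Fcgr3, 5.78% of its 75-base windows, is shared with Fcgr2b.

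Adgre1 and Mrc1 mark tissue macrophages and were the lowest of the 9 genes. Adgre1 (ENSMUSG00000004730; GRCm38 chr17:57358691-57483527, plus strand) encodes F4/80, the adhesion receptor by which mouse macrophages are usually recognised. It lay at 0.763, 0.690 and 0.715 FPKM (74 to 80 reads) in the cisplatin libraries and at 0.206, 0.237 and 0.423 FPKM (20 to 42 reads) in the control libraries. Control replicate 3 stood nearer to the cisplatin libraries than the other two did. The means were 0.723 ± 0.0375 and 0.288 ± 0.117 FPKM (SD, n = 3 each), with a log2 fold change of 1.12 ± 0.34 (SE, limma adjusted p = 0.028). The call was lost when cisplatin replicate 1, 2 or 3 or control replicate 1 or 2 was left out (limma adjusted p between 0.0588 and 0.084) and held without control replicate 3 (log2 fold change 1.36, limma adjusted p = 0.016). Relative to the T-cell markers the log2 fold change was 0.57 (limma adjusted p = 0.18). Adgre1 also met the mean required for testing only through its cisplatin libraries, so its call carries that selection.

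Mrc1 (ENSMUSG00000026712; GRCm38 chr2:14229392-14332057, plus strand) encodes the mannose receptor CD206, a scavenger of mannose-rich glycoproteins. Its level was 0.441, 0.696 and 0.552 FPKM (91 to 147 reads) in the cisplatin libraries and 0.230, 0.257 and 0.189 FPKM (37 to 49 reads) in the control libraries. No control library reached the lowest cisplatin library. With no filter on low values the log2 fold change was 1.02 ± 0.31 and missed the threshold (SE, limma adjusted p = 0.059), while voom on the rebuilt reads gave 1.30 ± 0.29 (SE, limma adjusted p = 5.4e-04).

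Cd68 and Cd14 did not follow the other 7 genes. Cd68 (ENSMUSG00000018774; GRCm38 chr11:69664213-69666153, minus strand) encodes macrosialin, a glycoprotein of the lysosome and endosome, and was the second most abundant of the 9 genes in the cisplatin and the control group alike. It was found at 22.0, 24.8 and 25.7 FPKM in the cisplatin libraries and at 22.9, 24.5 and 24.7 FPKM in the control libraries, so that the groups overlapped throughout. The means were 24.2 ± 1.98 and 24.1 ± 0.989 FPKM (SD, n = 3 each). The log2 fold change was 0.0041 with a 95% interval from -0.16 to 0.16 (limma adjusted p = 0.97), and its sign turned under other scalings. Relative to the T-cell markers Cd68 was lower (log2 fold change -0.55, limma adjusted p = 1.2e-04).

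Cd14 (ENSMUSG00000051439; GRCm38 chr18:36725074-36726736, minus strand) encodes the co-receptor that hands bacterial lipopolysaccharide to TLR4. Its libraries lay at 4.91, 5.84 and 5.30 FPKM in the cisplatin group and at 6.80, 7.98 and 7.50 FPKM in the control group. All 3 cisplatin libraries were below all 3 control libraries. With means of 5.35 ± 0.463 and 7.43 ± 0.592 FPKM (SD, n = 3 each), the log2 fold change was -0.47 ± 0.09 (SE, limma adjusted p = 0.0038), short of 2-fold. It was -1.02 relative to the T-cell markers (limma adjusted p = 3.2e-05), which made Cd14 the member called lower on that scale.

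**Figure D2:**
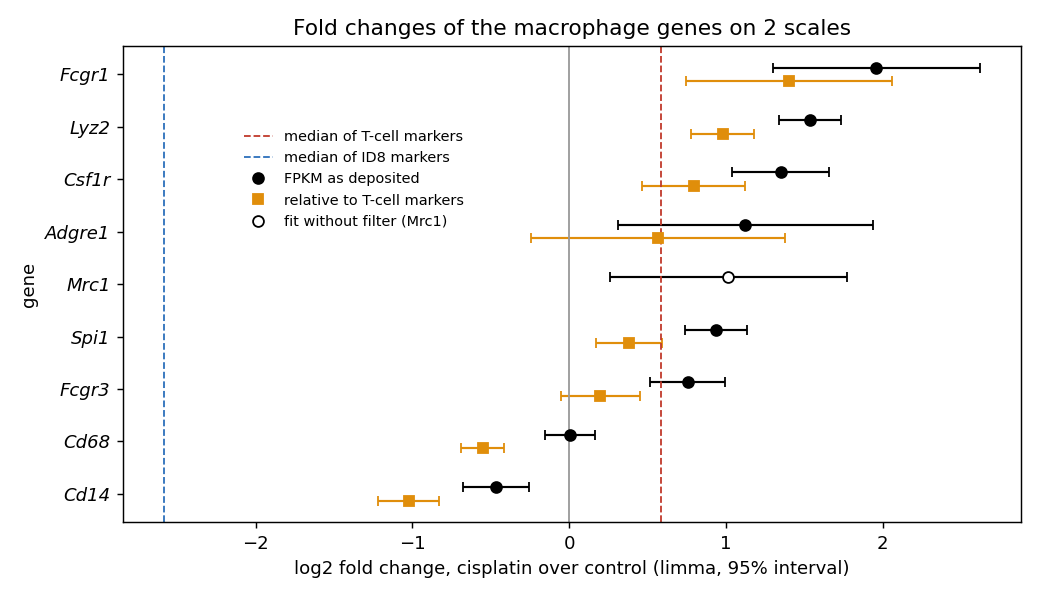
Log2 fold change (x axis, cisplatin over control) of each gene with its 95% interval from limma, as deposited (black circles) and relative to the T-cell markers (orange squares), with Mrc1 as an open circle from the fit without a filter and dashed lines at the median of the T-cell markers (0.58) and of the ID8 markers (-2.59). On the deposited scale Cd68 straddles 0 and Cd14 lies below it, and relative to the T-cell markers both lie below 0 and the intervals of Fcgr3 and Adgre1 include it.

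Relative to the T-cell markers, the higher members that still passed the test were Lyz2, Csf1r, Fcgr1 and Spi1, and the lower ones were Cd14 and Cd68. The changes were therefore unequal within the set on either scale. The order of levels in the cisplatin group was Lyz2, Cd68, Fcgr3, Spi1, Cd14, Csf1r, Fcgr1, Adgre1 and Mrc1, in which only the neighbours Adgre1 and Mrc1 overlapped. In the control group Cd14 ranked above Fcgr3 and Spi1, and the neighbours that overlapped were Cd14 and Fcgr3, Fcgr1 and Adgre1, and Adgre1 and Mrc1.

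The summed level of the 9 genes was 134 to 154 FPKM in the cisplatin libraries and 73.9 to 77.4 FPKM in the control libraries, and most of the difference was Lyz2. Without Lyz2 the sum was 55.1 ± 1.41 against 44.4 ± 0.811 FPKM (SD, n = 3 each). Lyz2 made up 61.8% ± 2.52 of the sum in the cisplatin group and 40.9% ± 1.51 in the control group (SD, n = 3 each). The ratio of Lyz2 to Cd68 was 3.74 ± 0.590 against 1.28 ± 0.0856, and that of Cd14 to Cd68 was 0.222 ± 0.0149 against 0.309 ± 0.0150 (SD, n = 3 each). These ratios were chosen after the values were seen and are given without a test.

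The libraries of a group scattered more than read counting alone would give for the abundant members. The coefficient of variation of Lyz2 was 10.4% and 5.89% in the cisplatin and control groups, where counting error came to 1.61% and 2.86%. For Cd68 it was 8.18% and 4.11%, against 3.18% and 3.31%. Adgre1 varied by 5.19% among the cisplatin libraries, less than the 11.4% of counting error, and by 40.7% among the control libraries, more than the 18.8% of counting error.

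The ligands of CSF1R moved opposite to the receptor. Csf1, the main growth factor of macrophages, was at 5.49 ± 0.205 FPKM in the cisplatin group and 12.8 ± 0.625 FPKM in the control group (SD, n = 3 each), or a change in log2 of -1.20 (limma adjusted p = 4.9e-06). Il34, the second ligand, was at 2.13 ± 0.354 against 6.23 ± 0.651 FPKM (SD, n = 3 each), or a change in log2 of -1.51 (limma adjusted p = 1.3e-04). The ratio of Csf1r to Csf1 was 0.731 ± 0.113 in the cisplatin group and 0.118 ± 0.00608 in the control group, with no overlap. Csf2rb, the beta chain shared by the GM-CSF, IL-3 and IL-5 receptors, rose from 6.49 ± 0.179 to 13.4 ± 0.237 FPKM (SD, n = 3 each), with a log2 fold change of 1.03 (limma adjusted p = 3.1e-06). Csf2, which encodes GM-CSF, was also higher (log2 fold change 1.15, limma adjusted p = 0.011), on 9 to 18 reads in the control libraries. Relative to the T-cell markers Csf2 did not pass the test (0.59, limma adjusted p = 0.088). Csf2ra, the alpha chain of the GM-CSF receptor, did not pass the test on the deposited scale (0.19, limma adjusted p = 0.083). Relative to the T-cell markers it was lower (-0.37, limma adjusted p = 0.0049). Of the 9 genes listed for these ligands and receptors, 7 were tested, with a median log2 fold change of 0.50. Called higher were 2 (4.11% of all genes tested) and called lower 2 (12.8%). The ID8 markers, which stood several times lower in the cisplatin group, moved in the same direction as Csf1 and Il34 and as Cebpa, Klf4, Cebpb, Tlr4, Lbp and Axl below, and their part in those differences was not tested.

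Transcription factors of the myeloid lineage went in opposite directions. Beside Spi1, Irf8, needed for monocytes and some dendritic cells, rose slightly (34.7 against 27.1 FPKM, log2 fold change 0.36, limma adjusted p = 1.3e-04). Cebpa, which works with PU.1 in early myeloid cells, fell from 14.7 ± 1.13 to 1.89 ± 0.140 FPKM (SD, n = 3 each), with a log2 fold change of -2.89 (limma adjusted p = 6.1e-07). Klf4, used by monocytes and by epithelia, was at 10.1 against 54.5 FPKM (log2 fold change -2.43, limma adjusted p = 8.3e-08), and Cebpb, an inflammatory factor, at 15.2 against 41.9 FPKM (-1.46, limma adjusted p = 1.4e-05). Of the 14 factors listed, 12 were tested, with a median log2 fold change of 0.46. Called higher were 2 (4.11% of all genes tested) and called lower 4 (12.8%).

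The Fc receptors and their signalling partners were higher on the deposited scale. All 10 genes were tested, and all 10 were higher at the adjusted p alone (27.5% of all genes), as were all 16 T-cell markers. Of the 10, 3 were called higher (4.11% of all genes), and the median log2 fold change was 0.90. Fcer1g, the gamma chain that FCGR1 and FCGR3 need at the surface, rose from 10.4 ± 0.122 to 19.3 ± 1.21 FPKM (SD, n = 3 each), with a log2 fold change of 0.88 (limma adjusted p = 1.6e-05). The ratio of Fcgr3 to Fcer1g was 0.546, 0.546 and 0.564 in the cisplatin libraries and 0.690, 0.514 and 0.608 in the control libraries, so that receptor and chain kept overlapping proportions. Fcgr4, another activating IgG receptor, was at 3.92 ± 0.735 against 1.05 ± 0.392 FPKM (SD, n = 3 each; log2 fold change 1.86, limma adjusted p = 0.0018). Fcgr2b, the inhibitory receptor, was higher by a smaller amount (7.77 against 5.09 FPKM, log2 fold change 0.61, limma adjusted p = 7.5e-04). Relative to the T-cell markers Fcgr2b did not pass the test (0.049, limma adjusted p = 0.60). Sirpa, which restrains engulfment of CD47-bearing cells, and Trem2, a lipid receptor of macrophages, were also called higher (log2 fold changes 1.21 and 1.23), although Trem2 reached the mean required for testing only through its cisplatin libraries (0.825 against 0.297 FPKM). Syk, the kinase downstream, rose by less (0.39), and relative to the T-cell markers it was lower (-0.17, limma adjusted p = 0.020). On that scale Sirpa passed the test (0.66, limma adjusted p = 9.6e-04) and Trem2 did not (0.67, limma adjusted p = 0.084). The median of the list relative to the T-cell markers was 0.34, with 1 gene called higher. For comparison, the median log2 fold change was 0.60 for the B-cell markers and 0.58 for the T-cell markers.

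**Figure D3:**
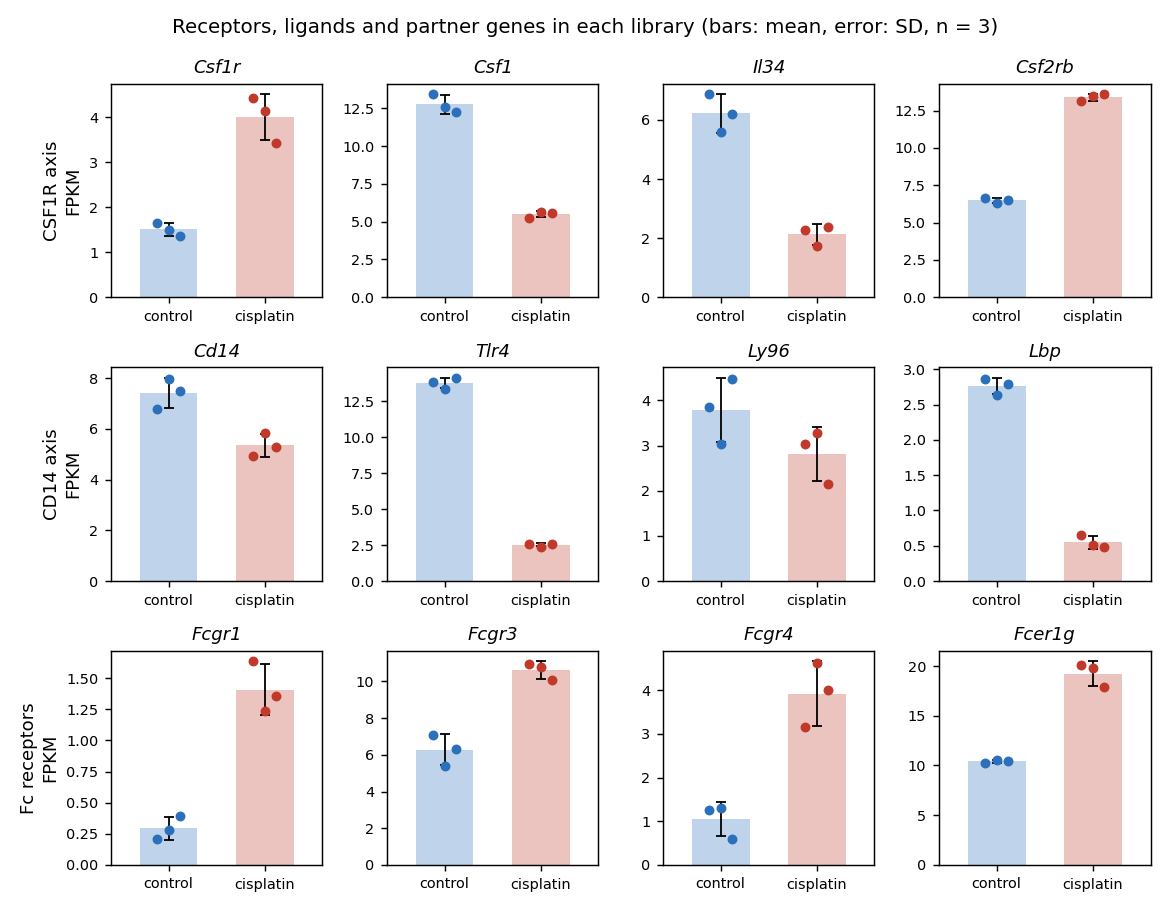
FPKM (y axis, from 0) in the control (blue) and cisplatin (red) libraries for the CSF1R axis (top row), the CD14 axis (middle row) and the Fc receptors (bottom row), with points for libraries, bars for the mean and error bars for the SD (n = 3 each). Csf1, Il34, Tlr4 and Lbp are lower in every cisplatin library, Csf2rb, Fcgr4 and Fcer1g are higher, and the libraries of Ly96 overlap.

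Tlr4 and Lbp, which work with CD14, were lower as well. Tlr4, the signalling receptor for lipopolysaccharide, fell from 13.8 ± 0.364 to 2.52 ± 0.115 FPKM (SD, n = 3 each), with a log2 fold change of -2.41 (limma adjusted p = 3.0e-07), a larger drop than that of Cd14. The ratio of Cd14 to Tlr4 was accordingly 2.13 ± 0.277 in the cisplatin group and 0.539 ± 0.0528 in the control group (SD, n = 3 each). Lbp, the serum protein that loads CD14, was at 0.550 against 2.77 FPKM (log2 fold change -2.15, limma adjusted p = 3.8e-05). On the deposited scale Ly96, the TLR4 partner MD-2, had a log2 fold change of -0.42 and did not pass the test (limma adjusted p = 0.12). Nor did the adaptor Ticam1 (-0.21, limma adjusted p = 0.15). Relative to the T-cell markers both were lower (-0.98, limma adjusted p = 0.0039, and -0.77, limma adjusted p = 8.0e-04). The median of all genes tested was -0.53 on that scale. In contrast, Cd180, a TLR4-like receptor of B cells and myeloid cells, and Acod1, which makes itaconate in activated macrophages, were called higher (log2 fold changes 1.67 and 2.06). Of the 10 genes in this list, 2 were called higher and 2 lower (4.11% and 12.8% of all genes tested), and the median was -0.14.

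Among phagocytic and scavenger receptors, 7 of 17 genes were tested, with a median log2 fold change of 1.05. Of these, 4 were called higher (4.11% of all genes tested) and 1 lower (12.8%). Stab1, which was tested but not called, reached the mean required only through its cisplatin libraries (0.913 against 0.408 FPKM). Clec7a, the beta-glucan receptor dectin-1, rose from 2.75 ± 0.214 to 16.0 ± 1.10 FPKM (SD, n = 3 each), with a log2 fold change of 2.5 (limma adjusted p = 9.1e-07). Cd36 and Msr1, scavenger receptors for oxidised lipoprotein, were called higher at log2 fold changes of 1.80 and 1.16. Axl, a receptor for phosphatidylserine-bound ligand on macrophages and on many tumour cells, fell from 81.2 ± 4.37 to 18.0 ± 0.983 FPKM (SD, n = 3 each), or a change in log2 of -2.17 (limma adjusted p = 4.0e-07). Cd209a and Vsig4, which mark dendritic cells and resident macrophages, had no read in any library.

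Other surface genes of monocytes and myeloid cells were mostly higher. In this list 11 of 14 genes were tested. At the adjusted p alone 10 were higher and 1 was lower (27.5% and 29% of all genes tested), and all 16 T-cell markers were also higher. Of the 11, 3 were called higher (4.11% of all genes tested). The median log2 fold change was 0.87, the value of Cd33. Cd33, counted among the 10, reached the mean required for testing only through its cisplatin libraries (0.893 against 0.443 FPKM). The called genes were Ptafr, the receptor for platelet-activating factor (log2 fold change 1.72), Cd300lf, an inhibitory lipid receptor (1.56), and Ms4a6c (1.02). Plac8, the most abundant gene of the list, was at 319 against 179 FPKM (log2 fold change 0.83), and Mpeg1, the pore-forming perforin-2 of phagocytes, was the one that fell (34.3 against 60.1 FPKM, log2 fold change -0.81, limma adjusted p = 1.6e-05). Relative to the T-cell markers the median of the list was 0.31, again the value of Cd33.

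**Figure D4:**
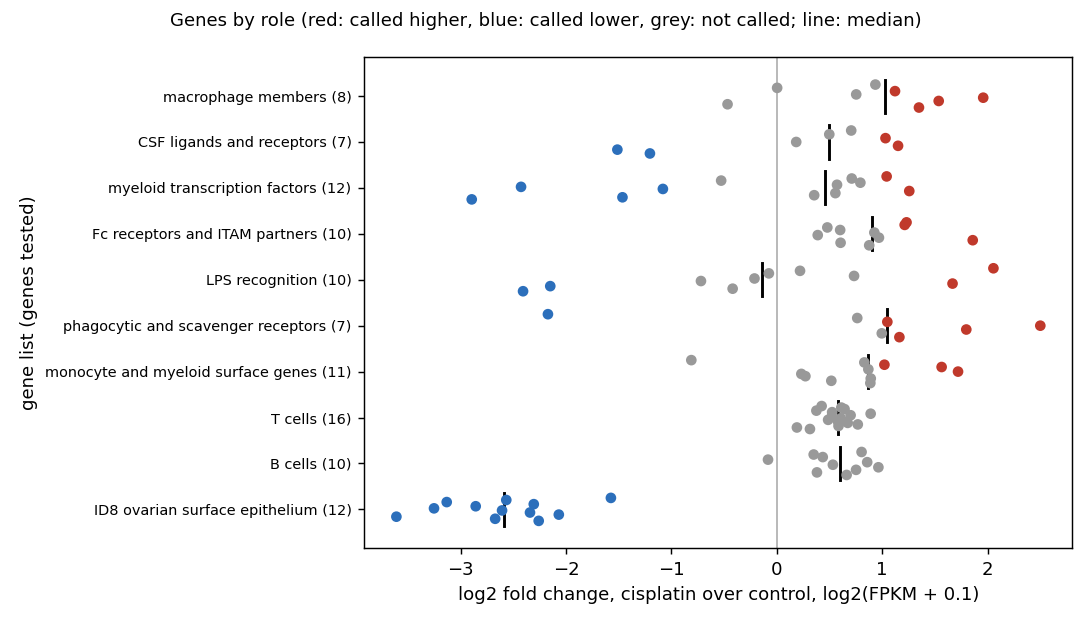
Log2 fold change (x axis, cisplatin over control) of each tested gene in the 9 genes, the 6 lists of related genes and the markers of T cells, B cells and ID8 cells, 1 point a gene, red where called higher, blue where called lower and grey where not called, with a black line at the median of each list. The Fc receptor and T-cell lists lie wholly above 0, the transcription factor and lipopolysaccharide lists spread to both sides, and the ID8 list lies wholly below 0.

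Other cell types that a spleen preparation can hold were read from lists of their markers, of which the NK-cell list holds Fcgr3, itself 1 of the 9 genes, and Tyrobp, also counted among the Fc receptor partners. Of the 10 neutrophil markers 2 were tested, and their summed level was 2.85 to 3.93 FPKM in the cisplatin libraries and 0.452 to 1.40 FPKM in the control libraries. The defining markers S100a8, S100a9 and Ly6g had at most 17, 6 and 2 reads in any library. Dendritic cell markers summed to 268 to 273 against 182 to 199 FPKM, but Ccr7, which T cells also express, made up most of this, and without it the sum was 26.01 to 29.9 against 19.7 to 19.9 FPKM. The defining markers Xcr1, Clec9a, Siglech and Cd209a reached at most 0.385 FPKM in any library. Of the 4 dendritic cell genes tested, 3 were higher and 1 was lower by the limma adjusted p alone (27.5% and 29% of all genes tested). The lower 1 was called (12.8%). NK-cell markers summed to 73.5 to 78.5 against 47.3 to 50.02 FPKM, and without Fcgr3 and Tyrobp to 45.1 to 50.03 against 32.3 to 34.5 FPKM. Mast-cell and basophil markers summed to 28.6 to 31.5 against 16.8 to 20.6 FPKM. All 12 tested ID8 markers were called lower (12.8% of all genes tested), with a median log2 fold change of -2.59. The part of these cell types in the differences above was not tested.

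Over the 6 libraries, the genes whose log2 level followed that of Csf1r most closely, among 7665 protein-coding genes that averaged 5 FPKM or more, were Cdyl2, Ndst2, Chuk, Ap1m1 and Syvn1, with Pearson correlations of 0.998 to 0.999. As many as 1245 of these genes (16.2%) reached a correlation of 0.95, since the 6 libraries fall into 2 groups and any gene that differs evenly between them correlates with any other. The correlation is a description over libraries that share these groups.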

How the data were processed

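Poly(A) RNA-seq was made from 6 libraries of T cells from co-culture with ID8 cells given cisplatin or PBS. The authors deposited 1 table of FPKM per gene, with 0 further columns of samples. The submitters' processing notes name fastp, HISAT2 2.0.5, featureCounts 1.5.0-p3 and mm10, whereas the paper's methods name LifeScope, and whether counting used strand is not given in the sources used here. Gene coordinates were the same as those of GENCODE M21 for 53499 of 54409 genes.

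Whole reads were rebuilt from FPKM and gene length to give depth and counting error, which covers sampling of reads only. All values came out whole within 0.1 read. The library total behind the FPKM values was 1.03 to 1.05 times the reads on genes in the cisplatin libraries and 0.976 to 0.982 times in the control libraries, so FPKM sets the cisplatin values slightly lower than reads on genes would. The main test was limma 3.58.1 (R 4.3.3) with a trended variance prior on log2(FPKM + 0.1) for genes that averaged 0.5 FPKM or more. An adjusted p is the Benjamini-Hochberg value over all 15874 genes tested, and a call also needs a 2-fold change. Other pseudocounts, filters, scalings, limma voom on the rebuilt reads, a replicate block and leave-one-out fits were tried. The script was tested on simulated data.

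The members and the lists of related genes were chosen with earlier results of these data known. From each list the text names the called genes (up to 4 by size), the 2 most abundant and those at 0. Lyz1, Fcgr2b and Fcgr4 are named as relatives. Ly96, Fcer1g, Hmgxb3, S100a8, S100a9, Ly6g, Xcr1, Clec9a, Siglech, Tyrobp, Kit, Mcpt8, Tpsb2, Stab1 and Cd33 were named after their values were seen. Python 3.11.15 with pandas 2.3.3 and matplotlib 3.10.9 was used for tables and figures.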

Additional observations from a re-analysis of the deposited data

How the results depend on the processing

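The number of the 9 genes called higher, 4 as reported, was 1 with a pseudocount of 1, 1 with a mean of at least 5 FPKM required (5 members tested) and 1 after centring on the T-cell markers, and it ran from 3 to 4 when 1 library was left out. The number called lower, 0 as reported, was 1 after that centring and 1 with no fold minimum, and stayed 0 when 1 library was left out. The median log2 fold change of the members, 1.03, was 0.75 with a pseudocount of 1, 1.16 with 0.01, 0.75 at 5 FPKM, 1.23 after quantile normalization, 0.47 after T-cell centring and 1.30 with voom on the rebuilt reads, and it ran from 0.96 to 1.07 when 1 library was left out. The log2 fold change of Cd68, near 0, turned to -0.0052 with median-of-ratios scaling and -0.55 after T-cell centring, and ran from -0.043 to 0.071 when 1 library was left out.

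The called genes of the pathway lists, 16 higher, numbered 9 with a pseudocount of 1, 7 at 5 FPKM, 7 after T-cell centring and 38 with no fold minimum. Those of the lists for other cell types, 5 higher, numbered 2, 1, 2 and 36 in the same order and 8 after quantile normalization. In the main fit 4.11% of all genes tested were called higher, and 27.5% were higher at the adjusted p alone. The 16 include Trem2 and the 5 include Mpo and Elane. These genes met the mean required for testing only through their cisplatin libraries, so both counts carry that selection. The cause of these differences was not tested. Quantile normalization moved the median of all genes to 0.16.

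With the replicate block as a term, 3 members were called higher, because Adgre1 lost its call (limma adjusted p = 0.0643), and 2662 genes were called over all against 2687 without it. Same-numbered libraries did not deviate together (correlations of 0.023, -0.063 and -0.021), and 1 of the 6 libraries correlated best with its own number. With 3 libraries in each group, this cannot tell whether same-numbered libraries shared a mouse or a culture. Depth limits Fcgr1, Adgre1 and Mrc1, whose control libraries hold 16 to 49 reads each.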

Other observations

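Genes of other myeloid lineages did not move as 1 group. Of the 8 mast-cell and basophil markers 5 were tested, with 2 called higher (4.11% of all genes tested) and 1 lower at the adjusted p alone (29%). Cpa3, the carboxypeptidase of mast cells and basophils, was at 17.2 ± 0.434 FPKM in the cisplatin libraries against 6.08 ± 1.16 FPKM in the control libraries (SD, n = 3 each; log2 fold change 1.5, limma adjusted p = 1.0e-04), and Fcer1a, the IgE receptor chain, at 3.63 ± 0.290 against 1.39 ± 0.269 FPKM (SD, n = 3 each; log2 fold change 1.34, limma adjusted p = 3.2e-04). Kit, the stem cell factor receptor, fell from 8.03 ± 0.211 to 4.84 ± 0.293 FPKM (SD, n = 3 each; log2 fold change -0.72, limma adjusted p = 8.6e-05). Mcpt8 and Tpsb2, proteases of basophils and mast cells, had log2 fold changes of 0.63 and -0.31 and did not pass the test (limma adjusted p = 0.070 and 0.28).

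Of the 10 neutrophil markers, Mpo and Elane were the 2 that reached the mean required for testing, and only through their cisplatin libraries, so their values are given without a test. Mpo, the myeloperoxidase of neutrophil precursors and early monocytes, was at 1.12 ± 0.144 FPKM in the cisplatin libraries and 0.148 ± 0.0862 FPKM in the control libraries (SD, n = 3 each). Elane, neutrophil elastase, was at 1.34 ± 0.396 against 0.156 ± 0.0828 FPKM (SD, n = 3 each).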
